A study of Mus musculus with 10 samples.

Results

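Granins are acidic proteins of the dense-core secretory granule, the store from which endocrine cells release peptide hormones on demand. Chromogranins and secretogranins aggregate with hormone cargo as granules form, while related proteins regulate the convertases that cut prohormones inside the granule. Together, the 10 count tables hold 44288 gene symbols. The genes described here are 8 members of the granin and granule protein group, chosen by name and present in all 10 tables. They are the granins Chga, Chgb and Scg2, the sorting protein Scg3, the convertase partners Scg5 (7B2, a chaperone of PCSK2) and Pcsk1n (proSAAS, an inhibitor of PCSK1), the granule lumen protein Resp18, and Vgf, a precursor of secreted peptides.

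Pituitary cells of CD1 mice were profiled by single-cell RNA-seq. The Drop-seq libraries were 2 of 8-week WT females, 2 of 8-week WT males, 1 of 8-week mt/hGRF females, 1 virgin WT female of 13 weeks and 2 of lactating WT females of 13 weeks. The mt/hGRF transgene drives human GHRH, the releasing hormone for growth hormone, from a metallothionein promoter, which is active in many tissues. The 10X Genomics libraries were 1 of 8-week WT female and 1 of 8-week WT male origin. Each WT 8-week and mt/hGRF Drop-seq library and lactating replicate 2 pooled 2 mice, while the virgin library and lactating replicate 1 came from 1 mouse each. Libraries held 890 to 5256 kept cells with medians of 534 to 1236 UMIs, where a UMI marks 1 captured RNA molecule. Levels are UMIs per 10000 after Gh, Prl and Pomc, which took 13.2% to 26.8% of UMIs, were removed from the totals. The 10X libraries were counted with other software and are given beside the rest and enter only the paired and platform fits of the sexes. Libraries shared at most 5 barcodes of kept cells.

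Cells were gated by marker genes that include no member, and classes with fewer than 20 cells in a library were left out. The gates were checked on hormone RNA. Prl was higher in lactotrope- than in somatotrope-gated cells in 10 of 10 libraries, and Gh was higher in somatotrope-gated cells in 10 of 10. Gonadotrope-gated cells held more Lhb than lactotrope-gated cells in 10 of 10 libraries. These checks covered chosen pairs of classes only. Gh was higher in gonadotrope- than in somatotrope-gated cells of the 10X male (4953 against 4293) and WT male replicate 2 (1513 against 1365). In Sox2-positive cells of the 10X female Gh was 2366 against 1931 in somatotrope-gated cells. Prl was higher in Sox2-positive than in lactotrope-gated cells of the 10X female (1549 against 743) and lactating replicate 1 (1549 against 1461). In the other libraries these pairs went the other way. Macrophage-gated cells, which should lack granule proteins, are given as a background level. Free RNA and doublets in that level were not separated.

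The promoters of 3 granins are shown because these genes separate the cell classes below, and because cyclic AMP response elements, sites of CREB-family factors, are a known feature of granin genes. RefSeq promoters (GRCm38.p6, 250 bases before to 50 after the start) were found for 7 members. The palindrome TGACGTCA, searched on both strands, was in 2 of these 7, Chgb and Scg2, and in 1.79% of 32851 promoters. The shorter TGACG, which lies within the palindrome, was in 5 of the 7 and in 20.8% of all. The windows are chr2:132781392-132781691 (plus strand) for Chgb, chr1:79439977-79440276 (minus strand) for Scg2 and chr12:102554691-102554990 (plus strand) for Chga. Capitals mark TGACG on either strand, and a match describes letters, not binding.
Chgb: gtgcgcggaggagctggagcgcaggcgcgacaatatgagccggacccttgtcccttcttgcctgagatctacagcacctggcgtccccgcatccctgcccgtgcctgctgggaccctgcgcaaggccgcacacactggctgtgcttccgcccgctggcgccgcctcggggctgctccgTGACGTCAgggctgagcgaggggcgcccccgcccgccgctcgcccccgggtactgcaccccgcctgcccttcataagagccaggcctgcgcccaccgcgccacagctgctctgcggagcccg
Scg2: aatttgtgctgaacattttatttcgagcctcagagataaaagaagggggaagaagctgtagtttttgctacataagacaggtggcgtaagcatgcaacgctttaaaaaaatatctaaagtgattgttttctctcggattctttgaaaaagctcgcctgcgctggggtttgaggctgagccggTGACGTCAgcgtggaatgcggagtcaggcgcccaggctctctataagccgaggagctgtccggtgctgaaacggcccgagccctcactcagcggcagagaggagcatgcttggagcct
Chga: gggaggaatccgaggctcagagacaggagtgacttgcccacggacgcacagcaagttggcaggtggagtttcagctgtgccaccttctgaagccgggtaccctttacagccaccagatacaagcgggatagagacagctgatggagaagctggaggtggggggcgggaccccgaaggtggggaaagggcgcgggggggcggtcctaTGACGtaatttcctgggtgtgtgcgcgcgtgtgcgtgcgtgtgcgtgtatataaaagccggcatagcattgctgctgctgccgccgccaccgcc

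In GRCm38 the members lie on chromosomes 1 (Scg2, Resp18), 2 (Chgb, Scg5), 5 (Vgf), 9 (Scg3), 12 (Chga) and X (Pcsk1n). Chgb was the most abundant member in every library, at 28.1% to 76.8% of the UMIs of the 8 members. In all kept cells it stood at 16.1 and 17.3 per 10000 in the 10X female and male, and at 26.1 to 159 in the Drop-seq libraries. Scg2 followed at 10.1 to 23.3 in the Drop-seq libraries. Scg5, Pcsk1n, Resp18 and Chga lay between 2.51 and 11.7, and Scg3 between 1.95 and 3.68. Vgf was near its detection limit, at 0.0652 to 0.419.

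**Figure D1:**
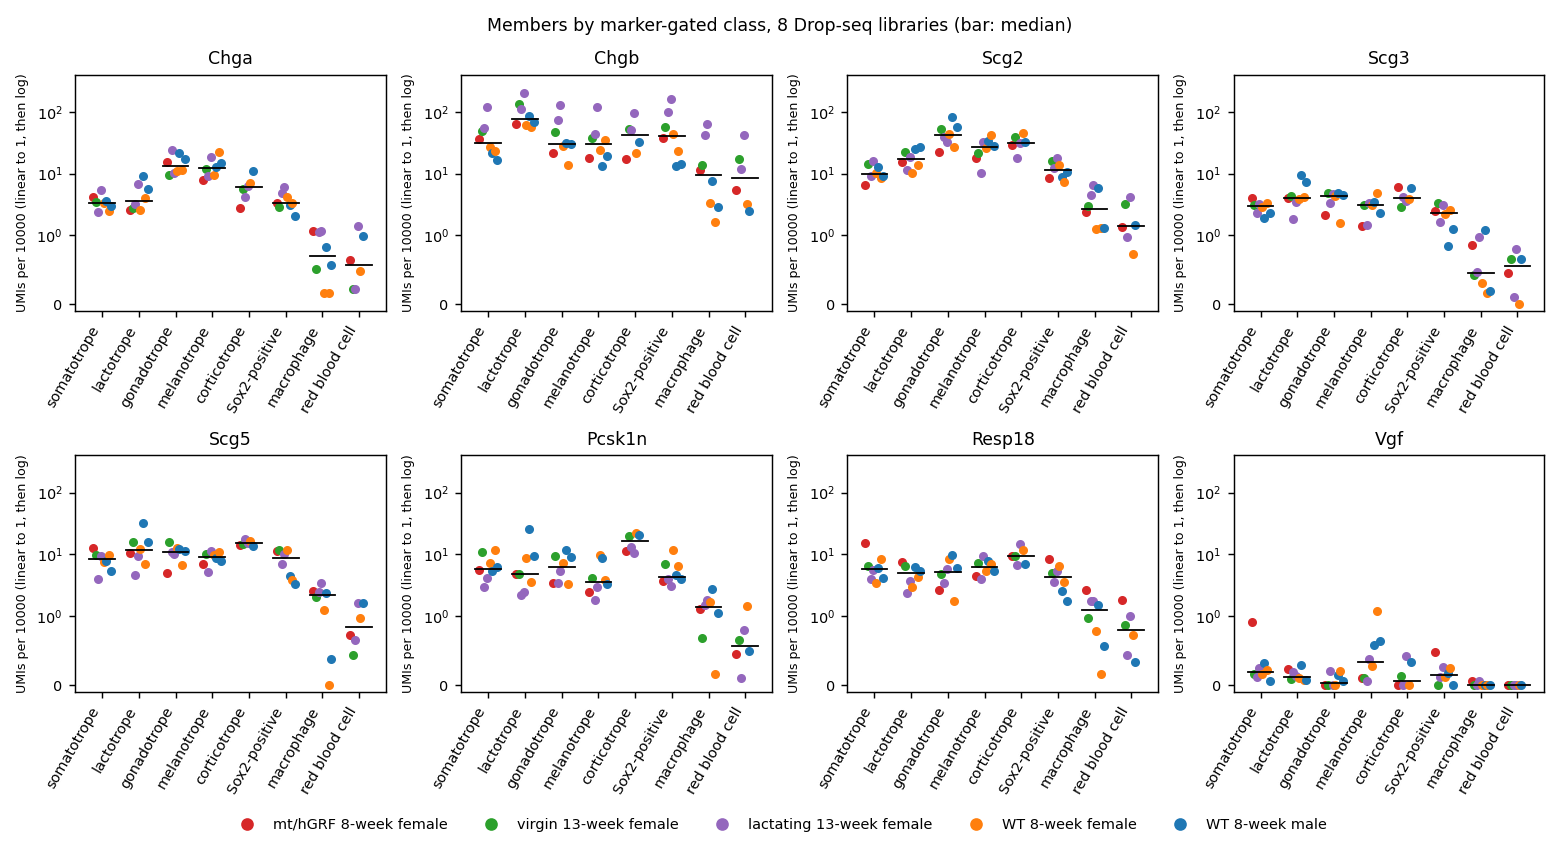
Level of each member (UMIs per 10000, linear to 1 and then log) in the 5 endocrine and 3 other marker-gated classes, with a point per Drop-seq library coloured by group and a bar at the median. Among the endocrine classes Chgb is highest in lactotrope-gated cells, and Chga and Scg2 in gonadotrope- and melanotrope- or corticotrope-gated cells, and the members' medians are lowest in macrophage- and red blood cell-gated cells. Stromal-gated cells are not plotted.

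Chgb was higher in lactotrope-gated cells than in the other endocrine classes measured in 8 of 8 Drop-seq libraries (4 classes in 6 libraries, and 3 in the libraries with fewer than 20 corticotrope-gated cells), with a lowest, median and highest level of 55.8, 77.1 and 203 per 10000. In somatotrope-gated cells, the same values were 16.4, 31.4 and 118. The ranges of the classes overlapped across libraries, but within a library lactotrope-gated cells were higher in 8 of 8. Macrophage-gated cells held 1.64 to 62.9, the highest values being 42.5 and 62.9 in the lactating libraries.

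Within libraries, 4 of the 7 members tested were higher in lactotrope- than in somatotrope-gated cells and 0 were lower, where 4.25% of 4043 genes were higher and 4.16% lower, 8.41% in all (edgeR quasi-likelihood with library as a block, 8 libraries). Chgb rose by 1.42 ± 0.14 on the log2 scale (SE, adjusted p = 3.173e-09). Scg2 rose by 0.84 ± 0.14 (adjusted p = 2.963e-05) and was higher in 7 of 8 libraries, and its call was lost with free RNA subtracted (1.40, adjusted p = 0.089). Scg3 rose by 0.68 ± 0.18 (adjusted p = 0.0089) and Scg5 by 0.66 ± 0.17 (adjusted p = 0.0096), higher in 7 and 5 of 8 libraries. Without the library block, Chgb no longer passed (1.29, adjusted p = 0.060). The calls of Scg3 and Scg5 were lost under several alternatives, DESeq2 among them (adjusted p = 0.056 and 0.061). Chga (0.41 ± 0.16, adjusted p = 0.12), Resp18 (-0.31 ± 0.14, adjusted p = 0.21) and Pcsk1n (-0.09 ± 0.22, adjusted p = 0.90) did not pass, and Vgf was too low to test. Without TMM factors Resp18 passed (-0.44, adjusted p = 0.045). Of the other granule genes, 1 passed: Sytl4 (granuphilin, which docks granules) fell by 1.92 ± 0.20 (adjusted p = 1.142e-08) in lactotrope-gated cells.

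Chga and Scg2 were higher in gonadotrope-gated cells than in lactotrope- and somatotrope-gated cells. Chga, the chromogranin that drives granule aggregation, stood at 9.48, 13.5 and 24.4 per 10000 (lowest, median, highest) in gonadotrope-gated cells, and at 2.57 to 9.18 in lactotrope- and 2.35 to 5.38 in somatotrope-gated cells. Melanotrope-gated cells stood at 7.86, 12.3 and 22.5, and Chga was highest there in 3 of 8 libraries and in gonadotrope-gated cells in 5. Scg2, the precursor of secretoneurin, stood at 22.2, 41.7 and 80.8 in gonadotrope-gated cells, and was highest in corticotrope-gated cells in 2 of 8 libraries. Chga and Scg2 were both above the lactotrope and somatotrope level in 8 of 8 libraries. Against the mean of these classes, Chga rose by 1.94 ± 0.15 (adjusted p = 1.369e-14) and Scg2 by 1.64 ± 0.13 (adjusted p = 4.966e-15), while Chgb fell by 0.58 ± 0.13 (adjusted p = 0.0016). Chgb was below lactotrope-gated cells in 8 of 8 libraries but above somatotrope-gated cells in 5 of 8. These were 2 members higher and 1 lower of 7 tested, beside 4.5% of 3759 genes higher and 4.42% lower, 8.91% in all. The rises of Chga and Scg2 passed in all 12 alternatives; the call on Chgb was lost in 3. Of the processing enzymes, Pcsk1 (1.27 ± 0.21, adjusted p = 1.691e-05) and Pcsk2 (1.17 ± 0.20, adjusted p = 1.586e-05), the convertases that Pcsk1n and Scg5 regulate, were higher in gonadotrope-gated cells. Rims2, which primes granules for release, was higher (0.68 ± 0.22, adjusted p = 0.043), and Syt7, a calcium sensor, was lower (-0.71 ± 0.22, adjusted p = 0.030).

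Melanotropes and corticotropes both make Pomc. Calls between them were frequent over all genes, so the count of members called is not a result about the members. Pcsk1n was lower in melanotrope-gated cells in 6 of 6 libraries, at 1.81 to 9.86 per 10000 over 8 libraries against 10.4 to 22.6 in corticotrope-gated cells. It fell by 2.28 ± 0.20 (adjusted p = 5.284e-11) and passed in all 11 alternatives. Chga was higher in melanotrope-gated cells in 6 of 6 libraries and rose by 1.31 ± 0.22 (adjusted p = 5.511e-06), a call lost with each cell thinned to 300 UMIs (0.74, adjusted p = 0.066). Scg5 (-0.75 ± 0.20, adjusted p = 0.0024) and Resp18 (-0.55 ± 0.20, adjusted p = 0.022) were lower in 6 of 6 libraries, and their calls were lost in 4 and 6 of 11 alternatives. Without a filter on low counts the sign of Resp18 turned (0.082, adjusted p = 0.90), and Chgb passed (0.67, adjusted p = 5.77e-05). Without TMM factors Scg2 (-0.56) and Scg3 (-0.71) passed (both adjusted p = 0.024), as did Scg2 with hormone-rich barcodes left out (-0.66, adjusted p = 0.0079). This made 1 member higher and 3 lower of 7 tested, but 20.4% of the 1548 genes tested were higher and 25.4% lower, 45.8% in all. Pcsk2, the convertase that makes α-MSH in melanotropes, rose by 4.66 ± 0.33 (adjusted p = 4.359e-13). Of the granule membrane genes 4 of 7 tested were lower and 0 higher. Rab3b, a granule GTPase, fell by 2.96 ± 0.31 (adjusted p = 2.058e-09), Atp6ap2, a proton pump subunit, by 1.35 ± 0.27 (adjusted p = 0.00011), Sytl4 by 1.12 ± 0.27 (adjusted p = 0.00093) and Rab27a by 0.97 ± 0.30 (adjusted p = 0.0085). Of the exocytosis genes, the calcium sensors Syt7 and Syt1 rose by 2.22 ± 0.44 (adjusted p = 8.299e-05) and 1.12 ± 0.26 (adjusted p = 0.00062), and Syt4, another synaptotagmin, fell by 0.64 ± 0.21 (adjusted p = 0.014). The nuclear RNAs Malat1, Meg3 and Neat1 together stood at 1263 to 2293 per 10000 in melanotrope- and 290 to 1174 in corticotrope-gated cells, and ribosomal protein genes at 50.4 to 125 and 161 to 303. Their part in the differences was not tested.

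The convertase partners and Resp18 were most often highest in corticotrope-gated cells, a class with at least 20 cells (22 to 63) in 6 Drop-seq libraries. Pcsk1n was highest there among the endocrine classes in 6 of these libraries, Resp18 in 5 and Scg5 in 4. In corticotrope-gated cells Scg5 had a lowest, median and highest level of 13.9, 15.3 and 17.8 per 10000. This range was narrower than its 4.72 to 16.2 in lactotrope-gated cells of the same libraries. Resp18 stood at 6.81, 9.36 and 14.9 in corticotrope-gated cells, and at 2.36, 4.93 and 7.70 in lactotrope-gated cells over 8 libraries. Scg3, which binds granule membrane cholesterol, had no class that led in most libraries, with medians of 3.002 to 4.41 in the 5 endocrine classes. Vgf had its highest class median in melanotrope-gated cells (0.333, from 0.0584 to 1.20) and was 0 in gonadotrope-gated cells of several libraries. These levels are descriptions with no test, and the share of all genes highest in corticotrope-gated cells was not counted.

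Cells outside the endocrine gates also held the members. Cells left without a class (ungated) held Chgb at 115.5 per 10000 in lactating replicate 1, against 111.6 in lactotrope-gated cells. In the other libraries they held less than lactotrope-gated cells. Stromal-gated cells, for which at least 4 marker UMIs were asked, had the highest Chgb of the marker-gated classes in 3 Drop-seq libraries, at 243.7 per 10000 in the virgin library and 203.7 and 216.4 in the lactating ones, where lactotrope-gated cells stood at 134.9, 111.6 and 202.8. Prl there was 3469, 2258 and 1924, against 2160, 1461 and 2324 in lactotrope-gated cells. Pou1f1, the factor that drives the Gh and Prl lineages, was 10.6, 9.73 and 7.86 there. Lactotrope-gated cells held 14.0, 11.9 and 9.81 of it, and macrophage-gated cells 1.74, 2.24 and 2.40. Median UMIs were 1253.5, 1135 and 1082, against 534.5, 822.5 and 676 in lactotrope-gated cells. The part of endocrine cells or doublets among the stromal-gated cells was not tested. Stromal-gated cells also had the highest Chgb in the 10X female, at 37.0 against 21.7 in lactotrope-gated cells. The thyrotrope markers Tshb, Trhr and Dio2 together stood at 82.8 per 10000 in these 28 cells, beside 92.4 for the stromal markers, and at 0.457 to 1.78 in the endocrine-gated classes of that library. Their part was not tested. In the other Drop-seq libraries with at least 20 stromal-gated cells Chgb was 24.5 to 58.7. Endothelial-gated cells held 26.7, 110.0 and 155.5 in the mt/hGRF, virgin and lactating replicate 2 libraries. In Sox2-positive cells, a progenitor class, Chgb stood at 13.4, 40.4 and 163 per 10000 (lowest, median, highest), beside a median of 9.56 in macrophage-gated cells. Red blood cell-gated cells held 2.48 to 42.1 in 6 libraries. With free RNA subtracted, Chgb was 0 in red blood cell-gated cells of all 6 libraries and 0 to 7.29 in macrophage-gated cells. The share subtracted was set on hormone RNA in macrophage-gated cells, so their low level is no separate result. Sox2-positive cells then held 6.17 to 125 in the Drop-seq libraries. Stromal-gated cells held 421.6 in the virgin library, a rise, and 188.6 and 198.1 in the lactating ones, a fall. The part of free RNA was not tested beyond this subtraction.

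**Figure D2:**
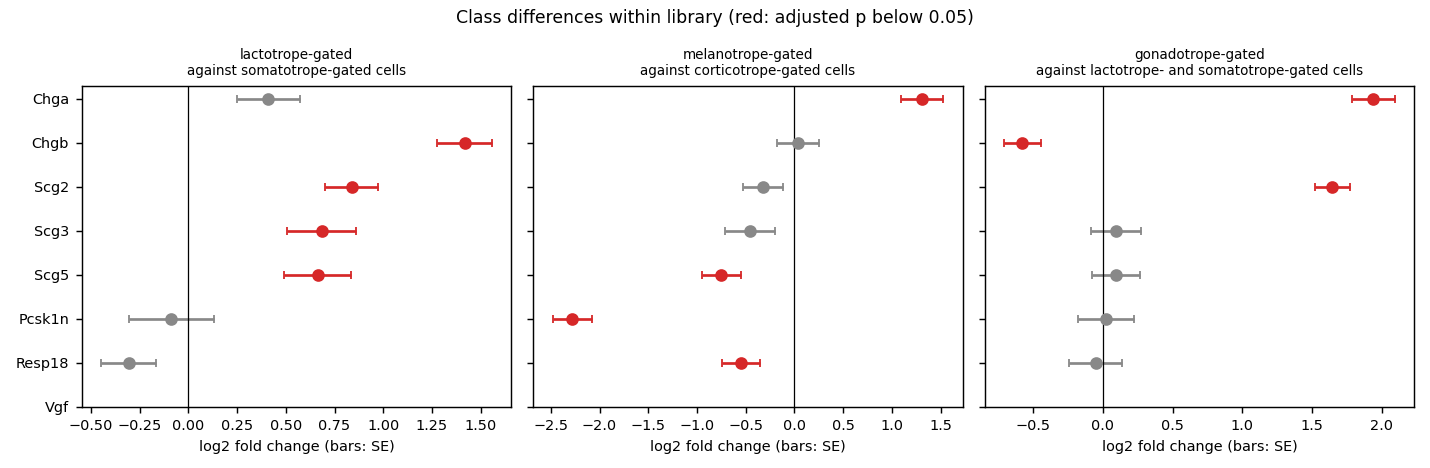
Log2 fold change with its SE for each tested member in the 3 class comparisons within library, red where the adjusted p is below 0.05. Chgb is higher in lactotrope-gated cells, Chga and Scg2 in gonadotrope-gated cells, and Pcsk1n is lower in melanotrope- than in corticotrope-gated cells.

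The members were also compared between barcodes in which Gh, Prl and Pomc made up over 30% of UMIs and the other barcodes, as a description. Each member was higher in the hormone-rich barcodes in 10 of 10 libraries, with the hormones out of the totals. The share of all genes higher in 10 of 10 libraries was not counted, so this describes the members only. Vgf was near its detection limit, at 0.142 against 0.0914 per 10000 in the 10X male. The nuclear RNAs Malat1, Meg3 and Neat1 were lower in the hormone-rich barcodes in 10 of 10 libraries (184.5 to 1149 per 10000 against 735.8 to 2911), and ribosomal protein genes were higher in 10 of 10. The other barcodes include macrophages and red blood cells. The part of these in the ratios was not tested. The median ratio was 3.604 for Chga, 4.81 for Chgb, 3.64 for Scg2, 4.13 for Scg3, 5.43 for Scg5, 4.94 for Pcsk1n and 5.27 for Resp18. The smallest ratio of any member in any library was 1.56, for Vgf.

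**Figure D3:**
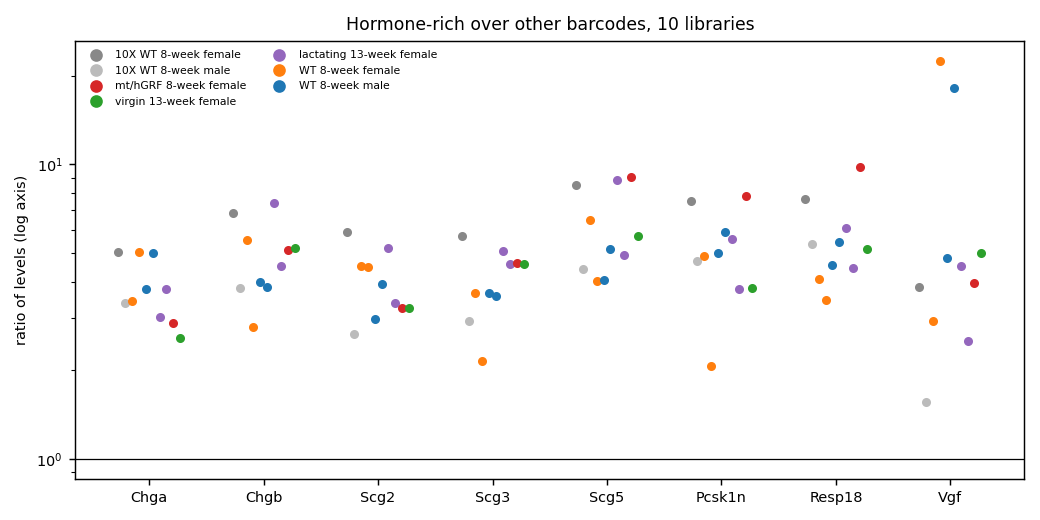
Ratio of each member's level in barcodes with over 30% hormone UMIs to that in other barcodes (log axis), with a point per library coloured by group. All points lie above 1.

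Over 66 points, each a class in a Drop-seq library, the genes most like the members' summed level were Maged1 (Pearson r = 0.84), Pam (0.83), Olfm1 (0.82), Hmgn3 (0.81) and Glt8d1 (0.77), of 1866 genes. Pam amidates peptides in the granule. Points of a library share its depth and free RNA. Chgb made up 31.3% to 76.8% of the members' UMIs in the Drop-seq libraries, so it weighs most in the sum. Over the points, its r with the other members was 0.16 to 0.66. The points include classes outside the endocrine gates, such as macrophage-gated cells.

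Lactation and the transgene were compared over whole libraries first, where fewer cells of a type and less RNA per cell cannot be told apart. Chgb stood at 75.5 per 10000 in the virgin library and at 90.5 and 159 in the lactating ones, both above it. With free RNA subtracted these were 93.5 against 54.4 and 123.4, on either side of the virgin value. Pcsk1n stood at 6.72 in the virgin library and at 2.51 and 2.98 in the lactating ones, both below it. The nuclear RNAs stood at 1021 in the virgin library and at 1732 and 2012 in the lactating ones, and ribosomal protein genes at 176.0 against 137.2 and 96.1. Their part was not tested. Neither passed the test: Chgb differed by 0.97 ± 0.49 and Pcsk1n by -1.06 ± 0.44 (both adjusted p = 1). Of 8 members, 0 passed, 2 had an unadjusted p under 0.05 (Pcsk1n, and Vgf at 1.54 ± 0.66, with levels of 0.0652 against 0.103 and 0.213), and DESeq2 called 0, beside 0.0112% of 17831 genes called (0.00561% higher and 0.00561% lower). Over all genes, 368 of 17831 had an unadjusted edgeR p under 0.05.

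The fit had little power here. On counts simulated for this comparison, it called 6% of genes changed 2-fold and 46% changed 4-fold among those with a mean of at least 1 per 10000, and 4% and 16% among genes with a lower mean, as Vgf has, so a miss does not show that a level was kept. For the lactotrope against somatotrope comparison it called 94% and 100%, and 56% and 62% at a lower mean.

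**Figure D4:**
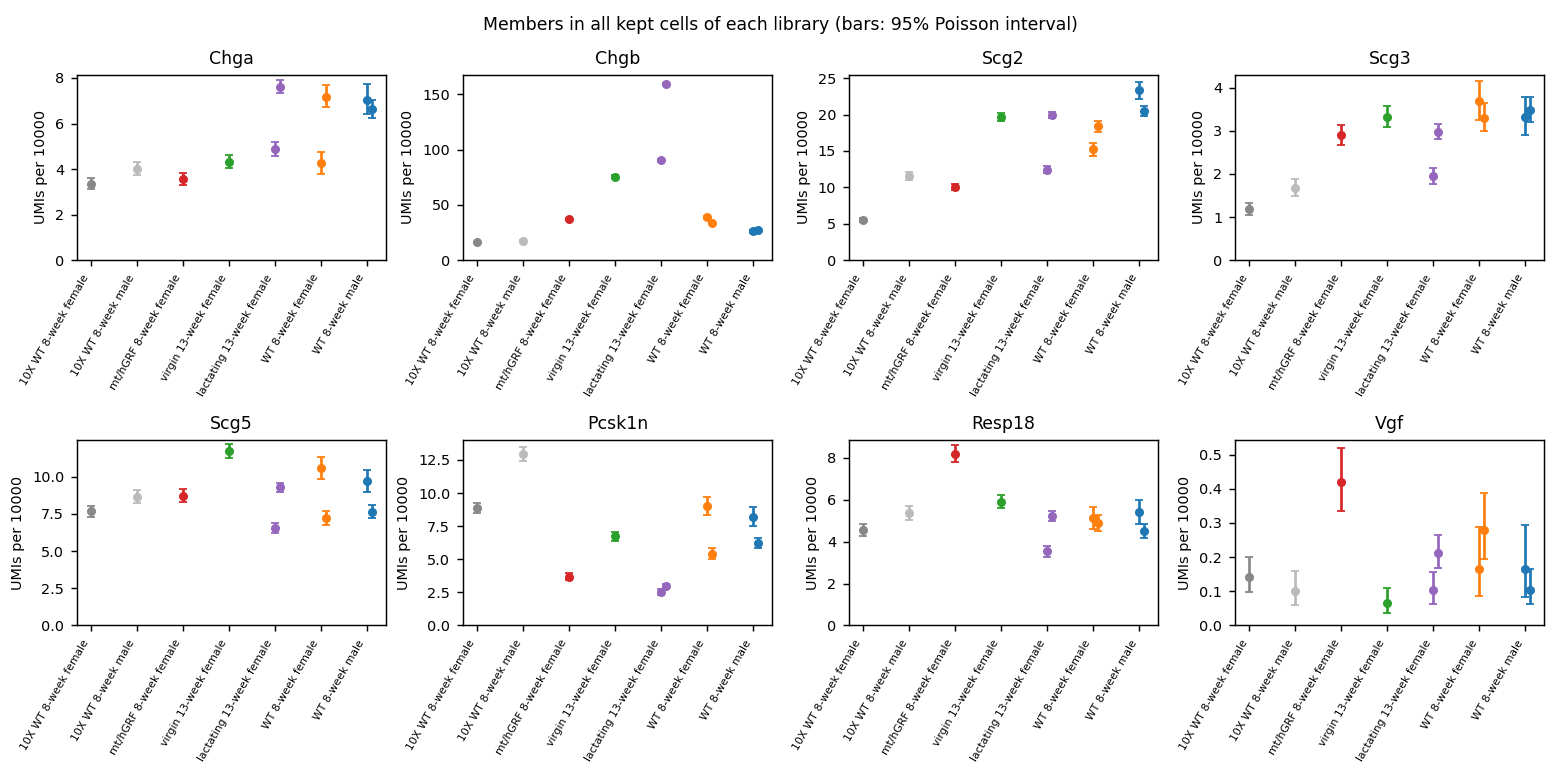
Level of each member in all kept cells of each library (UMIs per 10000), with exact 95% Poisson intervals that cover counting error only. Chgb is highest in the lactating libraries, Pcsk1n lowest there, and Resp18 highest in the mt/hGRF library.

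In somatotrope-gated cells, Pcsk1n stood at 11.1 in the virgin library and at 3.02 and 4.18 in the lactating ones (-1.43 ± 0.40, adjusted p = 0.39). Chgb stood at 49.0 against 54.2 and 118 there (1.00 ± 0.41, adjusted p = 1). In lactotrope-gated cells, Chgb was 135 in the virgin library and 112 and 203 in the lactating ones, which lie on either side of it. No member passed in lactotrope- or somatotrope-gated cells (edgeR, with 1 and 2 at an unadjusted p under 0.05, and DESeq2 0), beside 0.0532% of genes called in lactotrope-gated cells (0.0133% higher, 0.0399% lower) and 0.0148% in somatotrope-gated cells, all lower. Over all genes, 207 of 7514 in lactotrope- and 222 of 6771 in somatotrope-gated cells had an unadjusted edgeR p under 0.05. In macrophage-gated cells Chgb stood at 13.8 in the virgin library against 42.5 and 62.9 in the lactating ones. In red blood cell-gated cells it stood at 17.2 against 11.9 and 42.1, on either side of the virgin value.

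In the mt/hGRF library, Resp18 stood at 8.19 per 10000, above 5.12 and 4.88 in the WT females. In somatotrope-gated cells it was 15.1 against 3.52 and 8.34, and in lactotrope-gated cells 7.70 against 3.01 and 4.38. The mt/hGRF value was above both WT values each time. The difference was 1.45 ± 0.41 in somatotrope-gated cells (adjusted p = 0.095). It passed with WT female replicate 2 left out (2.21, adjusted p = 0.040), was 1.02 (adjusted p = 0.45) without WT female replicate 1, and was 0.078 (adjusted p = 0.98) with hormone-rich barcodes left out. Vgf there was 0.917 against 0.160 and 0.216 (2.35 ± 1.07, adjusted p = 0.43). No member passed in all kept cells, lactotrope- or somatotrope-gated cells (edgeR, with 1, 1 and 2 at an unadjusted p under 0.05, and DESeq2 0), beside 0.0168%, 0.12% and 0.399% of genes called, all higher except in somatotrope-gated cells (0.266% higher, 0.133% lower). Over all genes, 1227 of 17831, 403 of 7514 and 677 of 6771 had an unadjusted edgeR p under 0.05, in the same order. The macrophage-gated level of Resp18 was 2.65 in the mt/hGRF library against 0.783 and 0.164. The nuclear RNAs stood at 1054 in somatotrope-gated cells of the mt/hGRF library against 863 and 678 in the WT females. In lactotrope-gated cells they stood at 1551 against 1220 and 1070. Ribosomal protein genes stood at 156 against 118 and 97.0 in somatotrope-gated cells, and at 129 against 140 and 72.9 in lactotrope-gated cells. Their part was not tested.

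Males and females were compared at 8 weeks. Over all kept cells no member passed (0 at an unadjusted p under 0.05, and DESeq2 0), beside 0.0561% of genes called (0.0393% higher in males, 0.0168% lower). Of all genes, 461 of 17831 had an unadjusted edgeR p under 0.05. In lactotrope-gated cells, the male libraries were higher for Scg2, at 24.7 and 26.7 per 10000 against 10.1 and 13.9 in the females, and at 13.5 against 4.72 by 10X. The sexes did not overlap by Drop-seq for Scg2 or for any other member tested. Scg3 was 9.47 and 7.34 in males against 3.87 and 4.19, and 2.63 against 1.13 by 10X. Scg5 was 32.4 and 16.2 against 12.5 and 7.13, and 13.3 against 7.89 by 10X. Pcsk1n was 25.5 and 9.59 against 8.81 and 3.62, and 9.41 against 6.59 by 10X. The other 3 members tested, Chga, Chgb and Resp18, were also higher in the male in 3 of 3 comparisons of a male with a female library (10X with 10X, and Drop-seq libraries by replicate). The shares of all genes without overlap, or higher in the male in 3 of 3, were not counted. These counts therefore describe the members only.

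Whether a member passed in lactotrope-gated cells depended on the pairing of libraries and on other settings. In the fit without pairs 0 of 7 did, 5 had an unadjusted p under 0.05, and DESeq2 called 0, beside 0.146% of genes called (0.0665% higher, 0.0799% lower). Of all genes, 293 of 7514 had an unadjusted edgeR p under 0.05. With hormone-rich barcodes left out, Scg5 and Pcsk1n passed in that fit. Pcsk1n passed when WT male replicate 2 (1.78, adjusted p = 0.025) or WT female replicate 1 (2.02, adjusted p = 0.042) was left out. With the libraries joined in pairs as a replicate block, Scg2, Scg3, Scg5 and Pcsk1n passed (edgeR adjusted p from 3.667e-05 to 0.0022). That fit called 103 genes in all, where the fit without pairs called 11 of 7514. Over the Drop-seq pairs alone Scg2, Scg5 and Pcsk1n passed (edgeR adjusted p = 0.034, 0.0074 and 0.0023), and over all 6 libraries with platform as a term in place of pairs 0 passed. Those fits called 36 and 19 genes in all. Each paired or platform fit filtered genes for its own libraries, so its count is not a share of the 7514. The titles of only 2 of the 3 pairs share a number. WT male replicate 1 held 49 lactotrope-gated cells, and the nuclear RNAs Malat1, Meg3 and Neat1 stood at 672 per 10000 in it against 1220 in WT female replicate 1, 1038 against 1070 in replicate 2 and 3228 against 3412 by 10X. Their part was not tested.

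In somatotrope-gated cells no member passed (edgeR, 1 at an unadjusted p under 0.05, DESeq2 0), beside 0.177% of genes called (0.0738% higher, 0.103% lower). Of all genes, 255 of 6771 had an unadjusted edgeR p under 0.05. Pcsk1n was 5.39 and 6.19 in males against 7.19 and 11.8 in females, but 11.9 against 9.91 by 10X.

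**Figure D5:**
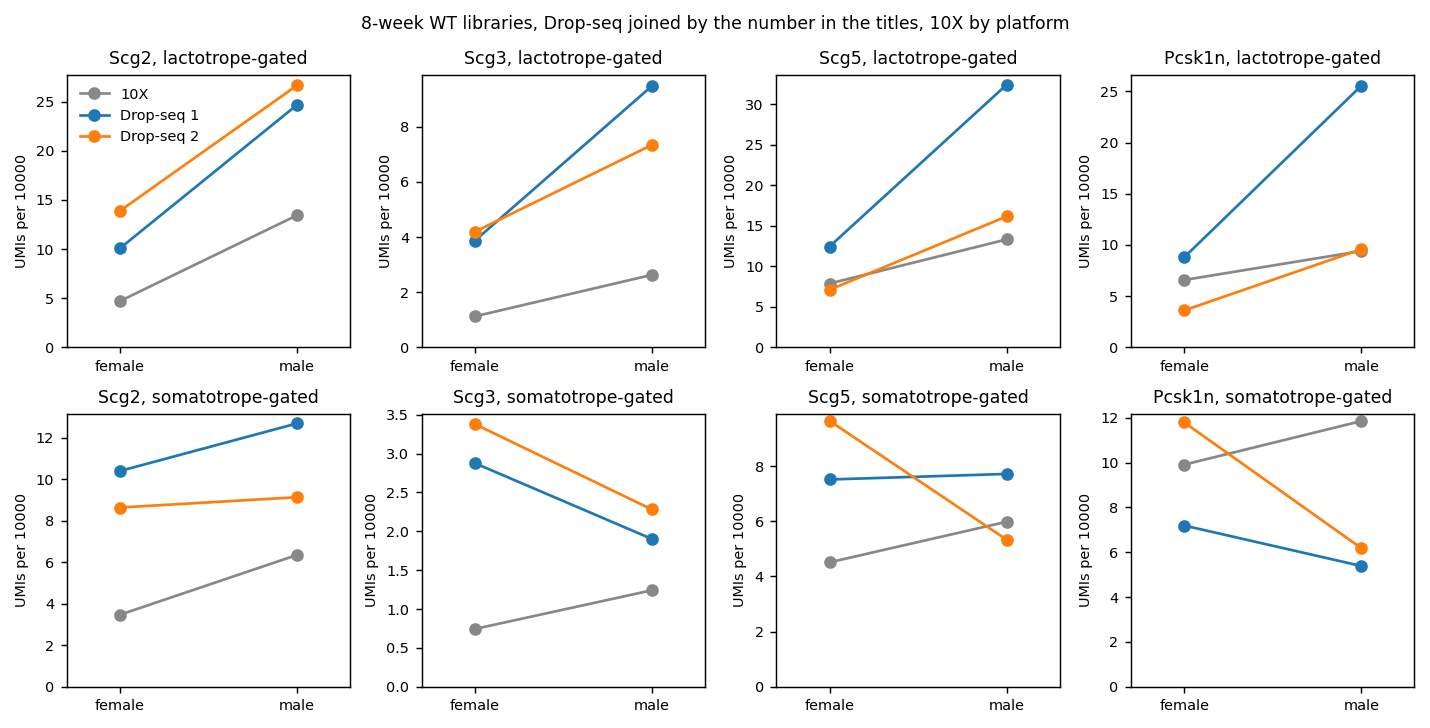
Levels of Scg2, Scg3, Scg5 and Pcsk1n (UMIs per 10000) in lactotrope-gated (top) and somatotrope-gated (bottom) cells of the 8-week WT libraries, with lines joining the Drop-seq libraries whose titles share a number and the 10X libraries by platform. All lines rise from female to male in lactotrope-gated cells. In somatotrope-gated cells all lines of Scg2, 1 Drop-seq line of Scg5 and the 10X lines rise, and the other lines fall.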

How the data were processed

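The deposited tables hold UMI counts per gene and barcode. The authors made the Drop-seq counts with STAR 2.5.2a on mm10, counting unique exon reads on the gene's strand and merging UMIs 1 base apart, and the 10X counts with Cell Ranger, whose version is not given in the sources used here. Their cell filters were applied: at least 300 UMIs and 100 to 4000 genes for Drop-seq, over 200 and under 3000 genes for 10X, and a mitochondrial share under 0.1 for both. Barcodes with a pseudogene share of UMIs over 0.2 (Drop-seq) or 0.02 (10X) were set aside, 0 to 215 per library. These limits, and the gate (the list with the most marker UMIs, at least 1, or 4 for the stromal list), were set after seeing the data. Red blood cells were barcodes with over 0.1 of UMIs from their markers.

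For each library and class, UMI sums entered edgeR 4.0.16 (TMM factors, two-sided quasi-likelihood tests), with Benjamini-Hochberg adjustment over all genes. Group tests used the 8 Drop-seq libraries in 5 groups, so a lone library is assumed to vary like the others, and p-values measure the spread between libraries. Class tests had library as a block, gate markers left out. DESeq2 1.42.0 was an alternative. The fits were tested on simulated data. Named genes were the 8 members and list genes past an adjusted p of 0.05, at most 4 per list and comparison by size. The members and lists were chosen with earlier results of these data known. No doublet caller was run, and the cells the study set aside as doublets were not identified here. Barcodes with equal marker counts of 2 classes, or with too few marker UMIs, stayed ungated. They numbered 303 of 1622 kept cells in the 10X female, 1874 of 3665 in the virgin library and 2720 of 5256 in lactating replicate 2. Intervals cover counting error only.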

Additional observations from a re-analysis of the deposited data

Results flagged for a closer look

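The difference between males and females was compared between lactotrope- and somatotrope-gated cells with an interaction of class and group within the 8 Drop-seq libraries, a test added after the data were seen. For Scg5 the log2 difference was larger in lactotrope-gated cells by 1.57 ± 0.33 (SE, edgeR adjusted p = 0.0037), and for Pcsk1n by 1.96 ± 0.34 (edgeR adjusted p = 3.36e-05). Of 8582 genes, 7 passed. By Drop-seq, Pcsk1n was higher in males in both replicates in lactotrope-gated cells and lower in both in somatotrope-gated cells. By 10X it was higher in the male in both classes.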

How the results depend on the processing

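Class and comparison names are shortened here, and classes are marker-gated cells. The genes called numbered 2 for lactation in all cells, 4 for lactation in lactotropes, 1 for lactation in somatotropes, 3 for the transgene in all cells, 9 for the transgene in lactotropes, 27 for the transgene in somatotropes, 10 for sex in all cells, 11 for sex in lactotropes, 12 for sex in somatotropes, 340 for lactotropes against somatotropes, 709 for melanotropes and 335 for gonadotropes. Leaving out 1 library of a group compared gave 0 to 0 for lactation in all cells, 1 to 2 for lactation in lactotropes, 1 to 3 for lactation in somatotropes, 3 to 8 for the transgene in all cells, 3 to 15 for the transgene in lactotropes, 14 to 42 for the transgene in somatotropes, 8 to 13 for sex in all cells, 9 to 25 for sex in lactotropes and 7 to 15 for sex in somatotropes. Without TMM factors, the genes called were 1 for lactation in all cells, 1 for the transgene in all cells and 22 for sex in lactotropes. With DESeq2, the genes called were 9 for lactation in all cells, 1 for lactation in lactotropes, 13 for the transgene in all cells, 0 for the transgene in lactotropes, 3 for the transgene in somatotropes and 6 for sex in lactotropes. Without a filter on low counts, the genes called were 23 for lactation in all cells, 2 for lactation in lactotropes, 2 for lactation in somatotropes, 147 for the transgene in all cells, 46 for sex in all cells, 567 for lactotropes against somatotropes, 2071 for melanotropes and 692 for gonadotropes. With hormone-rich barcodes left out, the genes called were 5 for lactation in all cells, 7 for lactation in lactotropes, 2 for lactation in somatotropes, 5 for the transgene in all cells and 31 for sex in lactotropes. With free RNA subtracted, the genes called were 1365 for lactation in all cells, 189 for lactation in lactotropes, 442 for lactation in somatotropes, 3012 for the transgene in all cells, 388 for the transgene in lactotropes, 1159 for the transgene in somatotropes, 3 for sex in all cells, 7 for sex in lactotropes, 77 for lactotropes against somatotropes, 295 for melanotropes and 97 for gonadotropes. In a fit of only the 2 groups compared, the genes called were 211 for lactation in all cells, 12 for lactation in lactotropes, 95 for the transgene in all cells, 0 for sex in all cells and 6 for sex in lactotropes. With pseudogene-rich barcodes kept, the genes called were 0 for lactation in all cells, 0 for the transgene in all cells and 3 for sex in all cells. With at least 500 UMIs per cell, the genes called were 2 for lactation in lactotropes, 6 for the transgene in all cells and 15 for the transgene in somatotropes. With each cell thinned to 300 UMIs, the genes called were 1 for lactation in lactotropes, 0 for the transgene in lactotropes, 3 for the transgene in somatotropes, 4 for sex in lactotropes, 5 for sex in somatotropes, 108 for lactotropes against somatotropes, 38 for melanotropes and 56 for gonadotropes. With 1 more marker UMI, the genes called were 1 for lactation in lactotropes and 104 for lactotropes against somatotropes. With other pseudogene limits, the genes called were 5 for the transgene in all cells. With the replicate block, the genes called were 79 for sex in all cells, 103 for sex in lactotropes and 25 for sex in somatotropes. With 10X included and platform as a term, the genes called were 6 for sex in all cells and 19 for sex in lactotropes. With the replicate block over the Drop-seq pairs only, the genes called were 40 for sex in all cells and 36 for sex in lactotropes. With no replicate block, the genes called were 140 for lactotropes against somatotropes and 161 for gonadotropes. The cause of these moves was not tested. The other counts stayed within 1.5 times.

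Of the signs of members that turned, 1 was of a called difference, Resp18 in melanotropes (0.082 without a filter on low counts). The others were log2 differences that had not passed, and they became the following. With the hormones kept they were 0.0045 for Scg2 (lactation in all cells) and 0.0091 for Pcsk1n (sex in all cells). With free RNA subtracted they were -0.33 for Chgb (lactation in lactotropes), -0.34 for Scg2, -0.31 for Scg3 and -0.50 for Vgf (lactation in somatotropes), -0.13 for Chgb and 0.10 for Scg3 (the transgene in all cells), 0.13 for Pcsk1n (the transgene in lactotropes), -0.20 for Chga and -0.28 for Scg2 (sex in somatotropes), -0.57 for Chgb (melanotropes) and -0.045 for Pcsk1n (gonadotropes). Without TMM factors they were -0.19 for Scg2 and -0.17 for Scg3 (lactation in somatotropes), -0.036 for Scg5 (the transgene in all cells), -0.058 for Scg3 (the transgene in lactotropes) and -0.21 for Chgb (melanotropes). With DESeq2 they were -0.028 for Scg2 and -0.013 for Scg3 (lactation in somatotropes) and -0.012 for Pcsk1n (gonadotropes). With at least 500 UMIs per cell they were -0.012 for Scg2 and -0.11 for Scg3 (lactation in somatotropes), 0.067 for Scg3 (the transgene in all cells), 0.0061 for Pcsk1n (sex in all cells), 0.061 for Scg3 (melanotropes) and -0.060 for Pcsk1n (gonadotropes). With each cell thinned to 300 UMIs they were -0.12 for Chga and -0.072 for Scg2 (lactation in somatotropes), -0.021 for Scg5 (the transgene in all cells), -0.93 for Scg3, -0.15 for Scg5 and 0.19 for Pcsk1n (the transgene in lactotropes), 0.070 for Scg5, 0.036 for Pcsk1n and 0.25 for Resp18 (sex in all cells), -0.18 for Resp18 (sex in lactotropes), 0.58 for Resp18 (sex in somatotropes), -0.28 for Chgb (melanotropes) and 0.34 for Resp18 (gonadotropes). With hormone-rich barcodes left out they were -0.036 for Scg2, 0.45 for Scg5 and 0.24 for Resp18 (lactation in somatotropes), -0.18 for Scg3 and -0.021 for Scg5 (the transgene in lactotropes), -0.021 for Scg5 (the transgene in somatotropes), 0.22 for Scg5 (sex in all cells), 0.030 for Pcsk1n (lactotropes against somatotropes), -0.23 for Chgb (melanotropes) and -0.13 for Pcsk1n (gonadotropes). In a fit of only the 2 groups compared they were -0.0025 for Scg2 (lactation in somatotropes). With 1 more marker UMI they were -0.43 for Scg2 and -0.24 for Scg3 (lactation in somatotropes), -0.087 for Chga (sex in somatotropes) and -0.084 for Scg5 and -0.13 for Pcsk1n (gonadotropes). Without a filter on low counts they were 0.049 for Scg3 (the transgene in all cells), 0.020 for Pcsk1n and 0.0022 for Resp18 (sex in all cells), 0.32 for Scg2 and 0.14 for Scg3 (melanotropes) and -0.13 for Scg3, -0.14 for Scg5 and -0.19 for Pcsk1n (gonadotropes). With pseudogene-rich barcodes kept they were 0.10 for Scg3 (the transgene in all cells). With other pseudogene limits they were 0.016 for Pcsk1n (sex in all cells). With the replicate block they were 0.11 for Scg3, 0.016 for Scg5, 0.18 for Pcsk1n and 0.035 for Resp18 (sex in all cells). With 10X included and platform as a term they were 0.11 for Scg3, 0.0058 for Scg5, 0.15 for Pcsk1n and 0.040 for Resp18 (sex in all cells). With the replicate block over the Drop-seq pairs only they were 0.0033 for Pcsk1n (sex in all cells). With no replicate block they were 0.13 for Pcsk1n (lactotropes against somatotropes). Leaving out 1 library turned the sign of some members, whose values then ranged from -0.46 to 0.34 for Scg2 (lactation in all cells), -0.57 to 0.16 for Scg3 (lactation in all cells), -0.53 to 0.14 for Resp18 (lactation in all cells), -0.069 to 0.88 for Chgb (lactation in lactotropes), -0.74 to 0.023 for Scg2 (lactation in lactotropes), -0.45 to 0.84 for Chga (lactation in somatotropes), -0.55 to 0.36 for Scg2 (lactation in somatotropes), -0.35 to 0.26 for Scg3 (lactation in somatotropes), -1.15 to 0.16 for Scg5 (lactation in somatotropes), -0.35 to 0.88 for Vgf (lactation in somatotropes), -0.14 to 0.080 for Scg3 (the transgene in all cells), -0.066 to 0.54 for Scg5 (the transgene in all cells), -0.48 to 0.12 for Chga (the transgene in lactotropes), -0.088 to 0.75 for Scg5 (the transgene in lactotropes), -0.76 to 0.56 for Pcsk1n (the transgene in lactotropes), -0.045 to 0.65 for Chga (sex in all cells), -0.16 to 0.067 for Scg3 (sex in all cells), -0.32 to 0.29 for Scg5 (sex in all cells), -0.36 to 0.44 for Pcsk1n (sex in all cells), -0.21 to 0.14 for Resp18 (sex in all cells), -0.060 to 0.41 for Chga (sex in somatotropes), -0.040 to 0.48 for Scg2 (sex in somatotropes), -0.68 to 0.51 for Resp18 (sex in somatotropes) and -1.72 to 0.73 for Vgf (sex in somatotropes). Members that passed in no group comparison as first fitted passed with free RNA subtracted for Scg5 (-1.92) and Resp18 (-1.96) in lactotropes for lactation and Scg2 (-4.30) in somatotropes for the transgene, and with hormone-rich barcodes left out for Scg5 (1.57) and Pcsk1n (1.90) in lactotropes for sex. 

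Only 2 Drop-seq pairs of a male and a female library share a number in their titles, and the 10X libraries were added to them as a pair by platform. Deviations from the sex means correlated at 0.93 (10X), 0.75 and 0.81 over these pairs, against at most -0.73, 0.41 and 0.39 between a library of the pair and opposite-sex libraries of the other pairs. Over the Drop-seq libraries alone they correlated at 0.61 within pairs and -0.61 across, which with 2 pairs is a single value. Each sex mean over the 3 pairs mixes 10X and Drop-seq libraries, so a platform difference alone makes the 10X deviations correlate. The 10X values therefore do not bear on pairing. The Drop-seq values are a hint of pairing from the data, since no label says what the numbers in the titles mark. With the replicate block over all 6 libraries, Scg2 (1.16, edgeR adjusted p = 3.667e-05), Scg3 (1.00, adjusted p = 0.0022), Scg5 (1.00, adjusted p = 0.00067) and Pcsk1n (1.02, adjusted p = 0.00054) passed in lactotropes. Over the Drop-seq pairs only, Scg2 (1.03, edgeR adjusted p = 0.034), Scg5 (1.21, adjusted p = 0.0074) and Pcsk1n (1.40, adjusted p = 0.0023) passed. These fits called 103 and 36 genes in all in lactotropes. With all 6 libraries and platform as a term in place of pairs, 0 members passed in lactotropes by edgeR, and the lowest adjusted p was 0.17 (Scg2). The block changed no call on members in all cells or somatotropes. Requiring 1 more marker UMI could not be fitted for melanotropes against corticotropes. The pseudogene limits, the class by group test, the platform term and the block over Drop-seq pairs only were chosen after seeing the data. With free RNA subtracted, Pcsk1n passed in somatotropes for lactation (-2.10) and Resp18 in somatotropes for the transgene (1.83), where 442 and 1159 of 5961 genes were called. That setting took 54.9% of the mt/hGRF macrophage UMIs as free RNA, used the profile of lactating replicate 1 for replicate 2, and for several libraries took the profile from barcodes just under the UMI minimum, which may hold cells. In a fit of only the virgin and lactating libraries, whose spread comes from the 2 lactating libraries, Pcsk1n passed in all cells (-1.07) beside 211 genes of 14210. With 1 or 2 libraries in a group, the spread between libraries limits the group comparisons, and an uncalled member is not shown to be equal.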
